A study of Bos taurus with 6 samples.

Results

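Zinc finger genes of the ZNF series encode proteins that hold DNA or RNA with repeated fingers of cysteine and histidine. Many of them also carry a KRAB domain, which recruits TRIM28, the H3K9 methyltransferase SETDB1 and HP1 proteins and so silences transposable elements, while others activate promoters or act on RNA and ribosomes. Early embryos are a stage at which this silencing is built up again after fertilization. The ZNF genes described here were chosen by name and level: a protein-coding record whose symbol is ZNF followed by a digit, with an FPKM (a fragment count corrected for transcript length and for the mapped fragments of each library) of at least 1 in at least 3 of 6 libraries. This held for 153 of the 263 protein-coding ZNF records, and those 153 are called members. In all, 10654 of the 18862 gene records passed the same filter and form the tested genes.

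The libraries came from bovine embryos at the 8-cell stage made by in vitro fertilization, 3 from a control group and 3 from a group cultured with GSKA, an inhibitor of lactate dehydrogenase A used to lower histone lactylation, at 200 pmol/L, with the same solvent in both groups. Strain, parents and the number of embryos per library are not stated. The study calls its replicates biological, without saying for these libraries what was kept separate between them. The files hold FPKM and no counts, and the depth behind each value is unknown. Where a library holds the RNA of more than 1 cell, fewer cells with a transcript and less RNA per cell cannot be told apart. All 12 oocyte and embryo markers looked for were in the files, with a summed FPKM of 2390 to 3234 in control and 2824 to 3743 in GSKA libraries. The 9 cumulus and granulosa markers in the files summed to 38.5 to 54.2 in control and 70.1 to 80.7 in GSKA libraries, with CYP19A1 and INHA at or near 0 throughout. Of these 9, the 4 that were tested had positive log2 fold changes, and none passed the adjusted test. TNFAIP6 had 4.31 to 11.3 FPKM in control and 15.2 to 16.6 in GSKA libraries, and STAR had 20.1 to 40.3 and 43.5 to 50.6. Both lay wholly higher in the GSKA libraries, as did 12.9% of all tested genes. HAS2 and VCAN, also tested, overlapped between the groups. Of the cumulus markers under the filter, AMH had 0 to 0.935 in control and 0 to 0.163 in GSKA libraries. PTX3 had 0.208 to 1.34 in control and 0.244 to 0.91 in GSKA libraries. The highest value of AMH and of PTX3 was thus in a control library. HSD3B1 was above 0 only in GSKA 2 and GSKA 3. The 6 sperm markers summed to 0 to 0.872 in control and 7.09 to 8.55 in GSKA libraries, and the 6 blood markers to 7.86 to 13.2 and 2.62 to 8.33. The cumulus and sperm sums did not overlap between the groups and the embryo and blood sums did. Within the embryo list 11 of 12 log2 fold changes were positive. Of the 12, 1 gene passed the adjusted test: KHDC3L rose from 65.3 ± 16.8 to 179 ± 29.2 FPKM (SD, n = 3, limma adjusted p = 0.0348). Over all tested genes 57.2% of log2 fold changes were positive and 0.225% passed the adjusted test as higher. The part of these markers in the ZNF results was not tested. Mitochondrially encoded genes took 13.2% of the FPKM in control 1 and 5.31% to 7.26% in the other libraries.

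ZNF transcripts were present across the family but mostly at low levels. Of the 153 members, 107 reached an FPKM of 1 in all 6 libraries, 14 in 5, 17 in 4 and 15 in exactly 3, and none of those 15 passed through 1 group alone. Another 8 members reached it in all 3 libraries of one group and in 1 of the other, 5 of them in GSKA and 3 in control, so their place among the members rests mostly on 1 group. Mean FPKM over the 6 libraries was 20 or more for 24 members, from 5 to 20 for 48 and under 5 for 81, with a median of 4.44 against 6.98 over all tested genes. Just inside the filter stood ZNF554, ZNF687 and ZNF76, whose third-highest FPKM was 1.02, 1.09 and 1.14. Just outside it stood ZNF575, ZNF169 and ZNF454, at 0.966, 0.961 and 0.920. The level filter uses the same FPKM values as the comparison, so the counts below describe genes that passed it.

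A few members held much of the family's signal. The 8 highest held 50.2% of the members' summed mean FPKM of 2236. ZNF207, which as BuGZ brings the checkpoint protein BUB3 to kinetochores in human cells, was the highest, at 214, 418 and 422 FPKM in the control libraries and 408, 270 and 263 in the GSKA libraries. The groups overlapped, with the lowest value in a control library. ZNF394, a repressor of MAPK signalling in human cells, stood at 145, 236 and 319 in control and 290, 277 and 206 in GSKA libraries, again with overlap. ZNF622, whose yeast counterpart Rei1 completes maturation of the large ribosomal subunit, stood at 117, 156 and 149 in control and 118, 176 and 139 in GSKA libraries. ZNF330, a nucleolar protein, was at 41.9, 58.5 and 68.9 and at 59.7, 55.8 and 54.8. ZNF654 was at 41.2, 55.0 and 51.1 and at 44.3, 52.3 and 49.7. None of these 5 genes passed the test, and their log2 fold changes lay between -0.13 for ZNF207 and 0.20 for ZNF394. The other 3 of the 8 highest, ZNF706, ZNF215 and ZNF22, had higher values in GSKA libraries and are described with the comparison. ZNF207 stood above ZNF394 in 5 of the 6 libraries, GSKA 2 being the exception. The files' own annotation puts 58 members in the KEGG set for herpes simplex virus infection, a set made up largely of KRAB zinc finger genes. None of the 8 highest members was in it, and its highest members were ZNF614 at 45.9, ZNF354B at 35.5, ZNF304 at 22.0 and ZNF317 at 21.9 mean FPKM. The median mean FPKM was 3.61 for the 58 genes in the set and 5.72 for the other 95. Which of the other 95 carry a KRAB domain was not tested, so these medians do not compare genes with and without it.

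**Figure D1:**
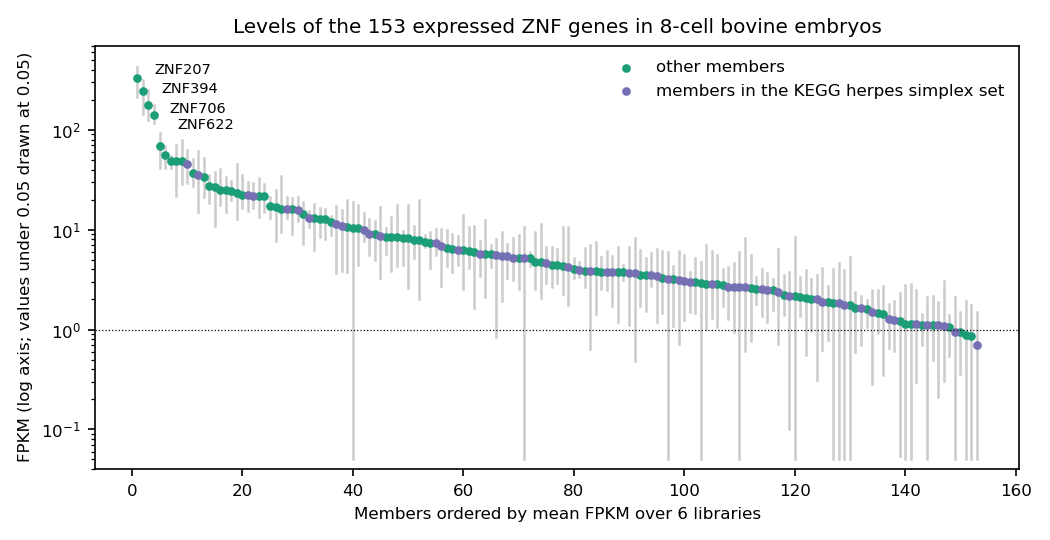
Mean FPKM of each of the 153 members over 6 libraries (points, log axis), ordered from the highest to the lowest, with grey lines from the lowest to the highest library; values under 0.05 are drawn at 0.05 and the dotted line marks an FPKM of 1. Purple points are the 58 members in the KEGG set for herpes simplex virus infection and green points the other 95; the 4 named genes have means of 142 to 332 FPKM and 81 members lie under 5.

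The summed level of the family overlapped between the groups. The members' FPKM summed to 2076, 2064 and 2412 in the control libraries and to 2457, 2224 and 2181 in the GSKA libraries, and the ranges overlapped. As a share of all FPKM this was 0.357%, 0.415% and 0.434% in control and 0.447%, 0.411% and 0.396% in GSKA libraries. The lowest share belonged to control 1, the library with the most mitochondrial signal. Without mitochondrially encoded genes its share was 0.411% and the other libraries held 0.427% to 0.472%. The median FPKM of a member was 5.30, 3.74 and 4.09 in control and 4.62, 4.14 and 4.51 in GSKA libraries. Spread between replicates was larger at low levels: the median pooled SD on the log2(FPKM + 1) scale was 0.54 for members under 5 FPKM, 0.43 from 5 to 20 and 0.34 from 20 up, against 0.49, 0.42 and 0.32 for all tested genes in the same ranges. Steady and variable members were picked out after their values were seen. The steadiest, ZNF608, had 8.84, 7.73 and 7.47 FPKM in control and 6.98, 6.65 and 6.99 in GSKA libraries. The most variable, ZNF639, had 13.0, 0 and 6.22 in control and 18.9, 7.65 and 16.1 in GSKA libraries, where 0 is the value listed for control 2.

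GSKA was compared with control in 1 limma fit over all 10654 tested genes on log2(FPKM + 1), with p-values adjusted over all of them by the Benjamini-Hochberg method. Fold changes on this scale understate the change of low genes. Of the 153 members, 1 (0.654%) passed an adjusted p of 0.05, and it was lower after GSKA. Over all tested genes 38 passed, or 0.357%, of which 24 were higher (0.225%) and 14 lower (0.131%). At an unadjusted p under 0.05 limma gave 8 higher and 6 lower members, or 9.15% of members. Over all tested genes the share was 13.4% (9.4% higher, 4.03% lower). The members' count was 8 in place of 14 without GSKA 1, and 19 without control 1 or without control 3. Without control 2, GSKA 1, GSKA 2 and GSKA 3 the count over all tested genes past the adjusted test was 24, 6, 10 and 4. The 3 libraries of one group lay wholly above or below those of the other for 16 higher and 8 lower members, or 15.7%, against 19.4% of all tested genes (12.9% higher, 6.45% lower). Of these 24 members, 4 were among the 8 whose place rests mostly on 1 group. The members' share was under the background by the unadjusted p and by overlap. By level, the share at an unadjusted p under 0.05 was 2.47% under 5 FPKM, 12.5% from 5 to 20 and 25% from 20 up. All tested genes in those ranges had 9.77%, 13.4% and 18.7%. For groups that did not overlap, members had 11.1%, 18.75% and 25%, against 15.6%, 18.56% and 25.5%. The gap below all tested genes was widest under 5 FPKM. There limma gave 2 higher and 0 lower members at an unadjusted p under 0.05. These are few genes, and the gap was not tested. A count of 1 past the adjusted test is too small to set against its background. The log2 fold change was positive for 92 members and negative for 61, with a median of 0.07 and quartiles of -0.19 and 0.40. The median over all tested genes was 0.09. After quantile normalization the medians were -0.03 for the members and -0.002 for all tested genes. A change of at least 2-fold was fitted for 5 members (3.27%, against 6.84% of tested genes). The 95% interval lay within a 2-fold change either way for 41 members, so for the others the interval reached past a change of that size.

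**Figure D2:**
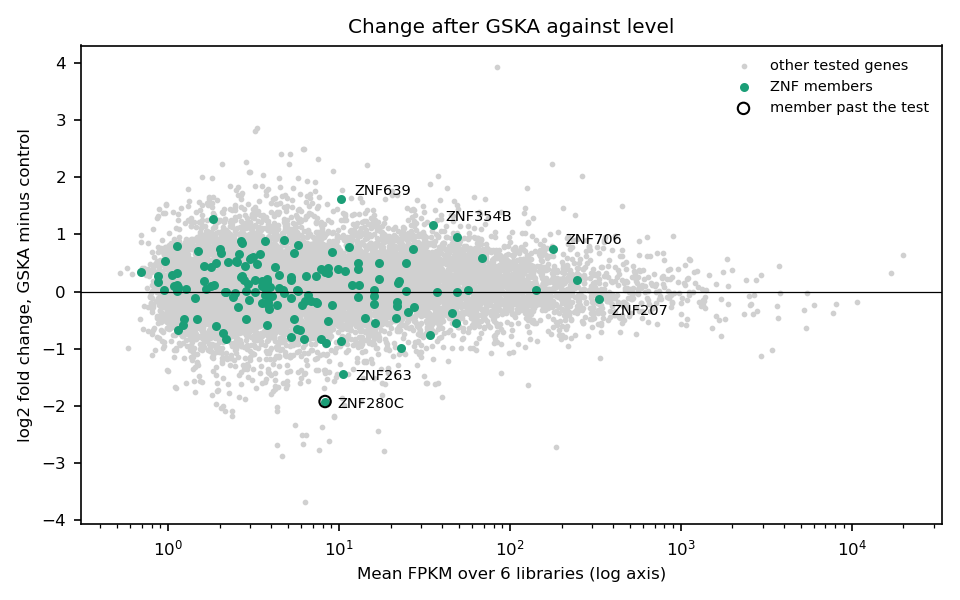
Log2 fold change of each tested gene (GSKA minus control, on log2(FPKM + 1)) against its mean FPKM over 6 libraries (log axis), with the 153 members in green over the other tested genes in grey. The ring marks ZNF280C at -1.92, the member that passed the test; the other members lie within the grey cloud, between -1.44 for ZNF263 and 1.62 for ZNF639.

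ZNF280C fell after GSKA. This gene encodes a zinc finger protein found near CTCF sites in human cells, and lies on the minus strand of X:14164154-14211596 in the coordinates of the authors' files (genome build not given in the sources used here). Its FPKM was 10.9, 12.8 and 17.5 in the control libraries and 2.89, 2.93 and 2.62 in the GSKA libraries. Every GSKA value was thus far under the lowest control value. The means were 13.7 ± 3.39 and 2.81 ± 0.17 FPKM (SD, n = 3 each). The log2 fold change was -1.92 (SE 0.34, 95% interval -2.65 to -1.20; limma adjusted p = 0.0350). An exact permutation test of the 6 values, two-sided, gave p = 0.1, the smallest that 3 against 3 libraries allow. The adjusted p passed 0.05 in 9 of 17 alternative fits. It was 0.234 when no gene was filtered out, and 0.0687, 0.0738, 0.158, 0.172 and 0.122 without control 2, control 3, GSKA 1, GSKA 2 and GSKA 3. It was 0.0617 without the intensity trend, and it also missed 0.05 with the replicate number as a block. The log2 fold change stayed negative in all 17. Its named relatives did not pass the test. ZNF280B had 15.3, 13.2 and 18.8 FPKM in control and 21.1, 17.3 and 16.8 in GSKA libraries (log2 fold change 0.22, 95% interval -0.40 to 0.83), and the low ZNF280A had 1.97, 0.535 and 2.32 against 0.348, 2.11 and 0.0542 (-0.59, -1.65 to 0.46). Whether reads could be split among these relatives was not tested.

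ZNF263, which binds GA-rich DNA and represses or activates promoters in human cells, had the next smallest p among the members and did not pass the test. It lies at 25:2737629-2744243 on the plus strand. Its FPKM was 20.01, 11.8 and 15.9 in control and 5.85, 5.93 and 3.81 in GSKA libraries, so the groups did not overlap. The log2 fold change was -1.44 (SE 0.34, 95% interval -2.17 to -0.71; limma adjusted p = 0.0968). ZNF296, which in mouse cells acts with the pluripotency factor KLF4, had 45.6, 32.3 and 17.2 FPKM in control and 14.01, 16.7 and 12.9 in GSKA libraries. The lowest control value stood just above the highest GSKA value, and the adjusted p was 0.242. ZNF593, whose yeast counterpart Bud20 takes part in export of the large ribosomal subunit, had 52.5, 38.6 and 37.9 in control and 26.6, 21.4 and 26.6 in GSKA libraries (log2 fold change -0.76, adjusted p = 0.234). All 3 GSKA libraries were lower than all controls. ZNF668, linked to DNA repair in human cells, had 12.5, 17.7 and 10.3 in control and 4.47, 6.65 and 10.2 in GSKA libraries (-0.87, adjusted p = 0.313). Its record overlaps ZNF646 on the opposite strand, and without stranded counting reads of the pair cannot be told apart. The remaining members among the 10 smallest p on the lower side were ZNF771, ZNF711, ZNF592, ZNF830 and ZNF576, with log2 fold changes from -0.91 to -0.47 and group values that overlapped.

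ZNF354B had the smallest p on the higher side and did not pass the test. It lies at 7:3508101-3531656 on the plus strand. Its FPKM was 21.5, 14.995 and 28.7 in control and 61.9, 46.2 and 39.5 in GSKA libraries, with every GSKA value above every control. The log2 fold change was 1.16 (SE 0.30, 95% interval 0.52 to 1.81; limma adjusted p = 0.126). Its relative ZNF354A, also a member, had overlapping values of 15.7, 3.88 and 10.2 in control and 13.0, 9.34 and 12.5 in GSKA libraries. ZNF706, needed in mouse embryonic stem cells for leaving self-renewal, had 129.8, 127 and 139.6 in control and 237, 187 and 249.8 in GSKA libraries (log2 fold change 0.75, adjusted p = 0.145). The control values lay close together, and the lowest GSKA value was well above them. ZNF22, also called KROX-26, had 39.1, 21.7 and 39.5 in control and 51.9, 68.6 and 70.7 in GSKA libraries (0.95, adjusted p = 0.177). ZNF689 had 6.28, 8.44 and 5.58 against 10.997, 12.9 and 10.6 (0.70, adjusted p = 0.366), again without overlap.

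ZNF214 and ZNF215 lie side by side on chromosome 15, on opposite strands, at 15:45737686-45740602 and 15:45755364-45773134. In humans the pair lies in the region linked to Beckwith-Wiedemann syndrome. Their levels differed widely: ZNF214 had 1.28, 2.10 and 1.58 FPKM in control and 3.30, 3.68 and 4.22 in GSKA libraries, and ZNF215 had 59.2, 41.2 and 64.6 in control and 92.3, 64.7 and 90.9 in GSKA libraries. The groups did not overlap for either gene, though for ZNF215 the lowest GSKA value and the highest control value were nearly equal. The log2 fold changes were 0.84 and 0.59 (adjusted p = 0.335 and 0.350). On the higher side, ZNF639, ZNF569, ZNF350 and ZNF181 completed the 10 smallest p. Their log2 fold changes were 1.62, 0.91, 1.27 and 0.89, and the group values overlapped for each. ZNF350, known in humans as the BRCA1 partner ZBRK1, was listed at 0 in control 1 and control 3, at 1.74 in control 2, and at 4.30, 4.66 and 0.284 in the GSKA libraries. ZNF181 overlaps ZNF599 on the opposite strand.

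**Figure D3:**
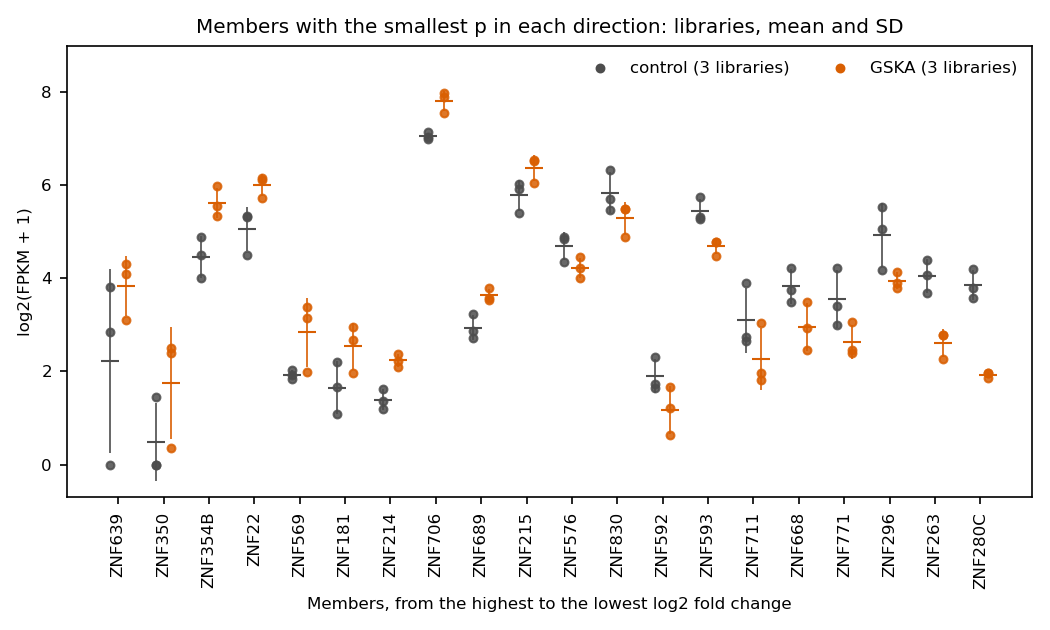
The 10 members with the smallest p on each side, ordered from the highest to the lowest log2 fold change; each point is 1 library on log2(FPKM + 1), grey for control and orange for GSKA, and the dash and bar are the mean and SD of 3 libraries. ZNF280C at the right shows 3 GSKA libraries close together under all controls; ZNF639 and ZNF350 at the left include libraries listed at 0.

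Members grouped by role are described gene by gene, and a shared direction within a role was not tested. Of 9 ZNF genes acting on RNA or ribosomes, 8 were tested and ZNF385A was under the filter. None passed, 4 had positive and 4 negative log2 fold changes, and the median was -0.14. Among them ZNF830, which as Omcg1 is needed by preimplantation mouse embryos, had 79.6, 51.3 and 43.3 FPKM in control and 28.6, 44.1 and 43.9 in GSKA libraries. The control values spread widely and overlapped those of GSKA. ZNF326, a subunit of the DBIRD complex that couples transcription with splicing, had 23.7, 14.9 and 22.8 in control and 34.0, 29.3 and 23.5 in GSKA libraries, with overlap. Of 17 genes of chromatin complexes, 12 were tested and 1 passed, ZNF280C, which is the member already described above. Over all tested genes 0.357% passed, and 1 gene is too few to set against that share. The median log2 fold change of the 12 was -0.00. ZNF410, which activates the remodeller gene CHD4 in human and mouse cells, had 10.96, 16.98 and 35.4 in control and 35.9, 38.1 and 24.3 in GSKA libraries. Its groups overlapped and the adjusted p was 0.426. All 6 sequence-specific activators were tested, with none past the test. ZNF143, an activator of small nuclear RNA and mRNA promoters, was at 30.8, 19.97 and 23.2 in control and 28.5, 23.3 and 22.2 in GSKA libraries, a log2 fold change of 0.02 (95% interval -0.58 to 0.62). All 5 pluripotency-linked genes in the files were tested and none passed. At an unadjusted p under 0.05 limma gave 1 higher and 1 lower, or 40%, against 13.4% of all tested genes. The groups did not overlap for 2 higher and 1 lower, or 60%, against 19.4%. A list of 5 genes is too short to set against these shares. Beside ZNF296 and ZNF706 above, ZNF281 had 10.9, 5.91 and 5.29 in control and 6.26, 5.65 and 1.62 in GSKA libraries. Of 4 genes for mitosis and genome maintenance 3 were tested and none passed.

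The 3 ZNF genes listed for imprinting were all under the filter. ZNF331, an imprinted gene in humans, had 0.442, 1.94 and 1.46 FPKM in the control libraries and was listed at 0 in all 3 GSKA libraries. ZNF445, which helps protect imprints in mouse and human, had 0, 1.04 and 0.507 in control and 0.633, 1.04 and 0.756 in GSKA libraries, and ZNF597 stayed under 0.5 FPKM throughout. These values are too low for a fold change.

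The partners of KRAB proteins were well represented. Of 26 listed genes for KRAB silencing and H3K9 methylation 25 were tested, CHD3 being under the filter, and none passed. At an unadjusted p under 0.05 limma gave 1 higher and 1 lower, or 8% against 13.4% of all tested genes, and no alternative fit called any. The median log2 fold change was -0.12. TRIM28, the corepressor that KRAB domains bind, had 14.8, 10.4 and 7.47 FPKM in control and 3.77, 5.51 and 7.30 in GSKA libraries. The groups did not overlap, but the lowest control and highest GSKA values nearly met (log2 fold change -0.85, adjusted p = 0.329). SETDB1 had 9.94, 4.89 and 5.13 in control and 5.82, 2.92 and 6.67 in GSKA libraries, with overlap. CBX5, the HP1 protein with the highest level, had 304, 281 and 251 in control and 216, 189.8 and 238 in GSKA libraries (-0.38, adjusted p = 0.461). SUV39H2, an H3K9 methyltransferase, had 6.26, 4.22 and 11.7 in control and 17.1, 14.7 and 18.6 in GSKA libraries (1.18, adjusted p = 0.184), while its relative SUV39H1 had 7.76, 9.50 and 2.80 against 1.85, 1.63 and 5.59 (-0.94, adjusted p = 0.427). The pair of methyltransferases thus had fitted changes of opposite sign, neither past the test.

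**Figure D4:**
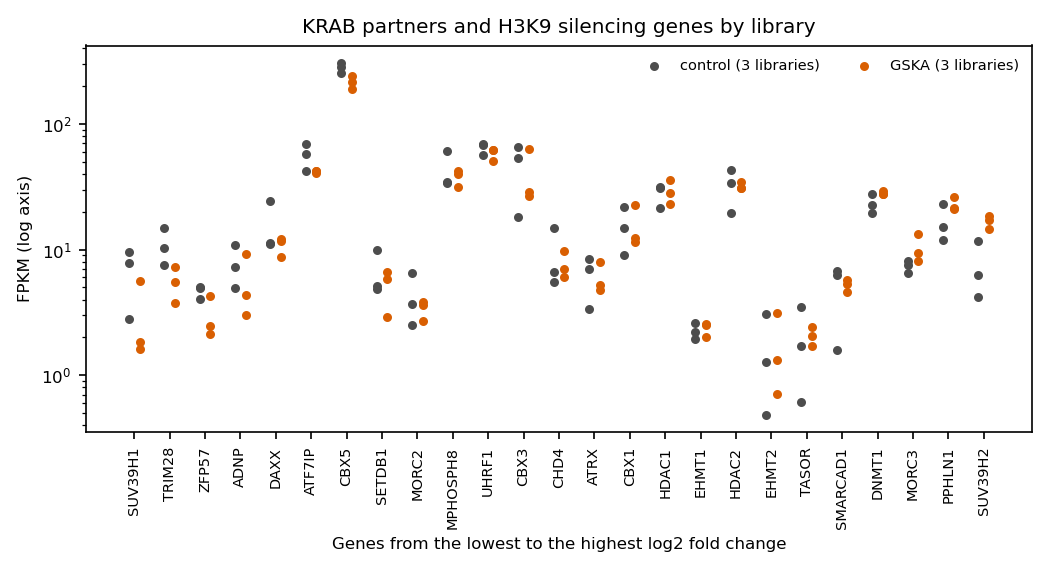
FPKM (log axis) of the 25 tested genes for KRAB silencing and H3K9 methylation in each library, grey for control and orange for GSKA, ordered from the lowest to the highest log2 fold change. SUV39H1 stands at the left at -0.94 and SUV39H2 at the right at 1.18; none of the 25 passed the test.

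The split by the KEGG set was made after the files were seen. Within the set, 3 of 58 members (5.17%) were higher and 0 lower at an unadjusted p under 0.05, against 9.4% higher and 4.03% lower of all tested genes, and the median log2 fold change was 0.21; of the other 95, 5 were higher and 6 lower, with a median of 0.03. No gene of the set passed the adjusted test. The set's median was 0.12 after quantile normalization, 0.13 after median scaling and 0.06 with genes required to reach 5 FPKM. It was 0.41 with a pseudocount of 0.1 and 0.09 without control 2. In the same order the medians of all tested genes were -0.002, 0.001, 0.12, 0.11 and 0.03, beside 0.09 in the main fit. With the filter of 5 FPKM the set's median thus lay under that of all tested genes. No test was made of these differences. The 22 tested genes of the related ZSCAN, ZKSCAN and ZFP series, of 35 in the files, had a median of 0.14, with none past the test and 1 at an unadjusted p under 0.05.

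ZNF genes often lie in rows of gene copies. Of the members, 41 (26.8%) were on chromosome 18, which holds 5.46% of all tested genes. It also holds 77 of the 263 protein-coding ZNF records, expressed or not. Chromosomes 25 and 7 held 13 members each. Counting consecutive members whose starts are within 200 kb, 35 members fell into 9 clusters of 3 or more, with 15 pairs and 88 single genes. In 7 of the 9 clusters the log2 fold changes had both signs. On chromosome 18, at 57807061-57894839, ZNF613, ZNF432, ZNF614 and ZNF350 had mean FPKM of 3.07, 3.78, 45.9 and 1.83 and log2 fold changes of 0.59, -0.59, -0.37 and 1.27. ZNF614 stood above its neighbours in every library, at 63.3, 37.5 and 55.2 in control and 49.1, 29.5 and 41.1 in GSKA libraries. On chromosome 25, ZNF263 lay between ZNF200 and ZNF174, whose log2 fold changes were 0.11 and 0.25. ZNF200 had 15.5, 10.7 and 11.6 against 13.4, 13.9 and 13.3, and ZNF174 had 4.32, 4.50 and 5.16 against 5.42, 5.78 and 5.98. All 4 members of the chromosome 14 cluster (ZNF250, ZNF16, ZNF34 and ZNF7) and of the chromosome 18 cluster at 47417825-47583658 (ZNF569, ZNF570, ZNF420 and ZNF345) had positive log2 fold changes, from 0.19 to 0.68 and from 0.17 to 0.91. None of these 8 passed the test and the group values overlapped for each of them. Their 95% intervals reached past 0 except for ZNF569, and ZNF570 was listed at 0 in 3 libraries. In all, 20 members overlapped another gene record, and near-identical copies could share reads in the authors' quantification.

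**Figure D5:**
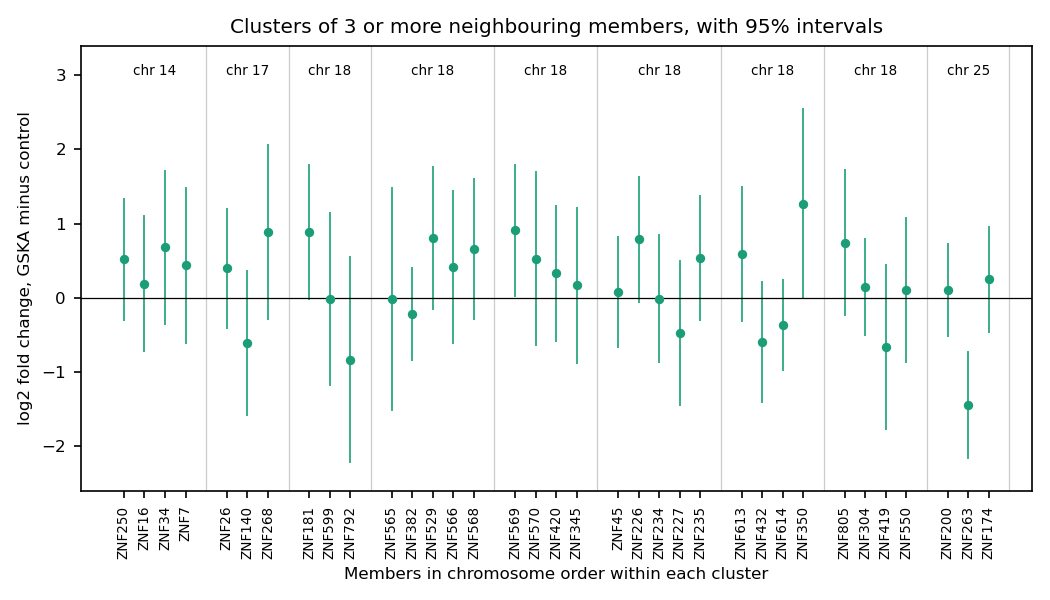
Log2 fold change (GSKA minus control, on log2(FPKM + 1)) with its 95% interval for the 35 members in 9 clusters, in chromosome order within each cluster. ZNF263 on chromosome 25 stands apart from its neighbours at -1.44; most intervals cross 0, including all of the chromosome 14 cluster.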

How the data were processed

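RNA of bovine 8-cell embryos was sequenced from low-input SMART-Seq v4 libraries, 3 control and 3 GSKA. The deposited values are FPKM per gene, made by the authors; StringTie 1.3.4d, HISAT2 2.0.4, edgeR and cutadapt 1.9 are listed in the submitters' processing notes, and the genome build is unknown here. No read counts came with the FPKM values, so depth is unknown and no count test was run. A further table of the authors' fold changes and p-values was not used. Gene symbols and coordinates are those of the files; 149 of the 153 members had their symbol in the RefSeq table of names.

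Genes reaching an FPKM of 1 in 3 or more libraries were kept, transformed as log2(FPKM + 1) and fitted with limma 3.58.1 (R 4.3.3) with an intensity trend and group as the term. Benjamini-Hochberg adjustment ran over all tested genes, with calls at 0.05. The fit was tested on simulated data. ZNF268 and ZNF75D each have a second record that is under the filter, and both records of ZNF383 are under it. The 263 records include the opposite-strand record ZNF593OS. The genes named are the member past the test, the 10 members with the smallest p on each side, the 8 with the highest mean FPKM, up to 3 per role list, the imprinting list, TRIM28, SETDB1 and 5 other partner genes, and 3 genes on each side of the filter; relatives, cluster members and others were added after their values were seen. A planned split by KRAB domain and number of fingers could not be made without protein sequences. The KEGG set of the files was used in its place, without a check of which members carry the domain. The members and lists were chosen with earlier results of these data known. Alternatives changed the pseudocount, filter, scaling, trend, block and libraries 1 at a time.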

Additional observations from a re-analysis of the deposited data

How the results depend on the processing

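Of 40 named genes, 34 kept the sign of their log2 fold change in every alternative fit that tested them (17 for 31 of the 40, and 16 for the 9 that did not reach the stricter filter of 5 FPKM), and ZNF280C was the only one called in any. Over all tested genes the count past the test, 38, was 15 with a pseudocount of 0.1, 21 after median scaling (7 higher, 14 lower, against 24 and 14), 7 without the intensity trend, 109 at an adjusted p under 0.10 and 4 to 42 when 1 library was left out. With no filter on FPKM it was 0 in limma, with 1664 of 18862 at an unadjusted p under 0.05. Quantile normalization gave 14 higher and 15 lower. The count of members past the test, 1, was 0 with no filter on FPKM, 0 without the intensity trend, 2 at an adjusted p under 0.10 and 0 to 1 when 1 library was left out. The members at an unadjusted p under 0.05 numbered 8 to 19 when 1 library was left out. The median log2 fold change of all members was -0.027 after quantile normalization and 0.037 to 0.16 when 1 library was left out. Over all tested genes it was -0.0025 and 0.031 to 0.14. The signs that turned belonged to small changes: ZNF330 was -0.085, -0.071 and -0.016, ZNF622 -0.029, -0.079 and -0.023 (quantile normalization, median scaling and rescaling without mitochondrially encoded genes), and ZNF687 was -0.073 and -0.011 under the first pair. With 1 library left out, the log2 fold change ranged from -0.16 to 0.19 for ZNF330, -0.20 to 0.23 for ZNF687, -0.45 to 0.038 for ZNF207, -0.11 to 0.46 for ZNF394, -0.12 to 0.16 for ZNF622 and -0.12 to 0.083 for ZNF654. The cause was not tested. Leaving out a library leaves fewer samples, and dropping the filter tests more genes. Depth is unknown, so what it limits cannot be given.

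Deviations of libraries with the same replicate number correlated at -0.08, 0.14 and -0.12. Control 1 with GSKA 3 stood at 0.18 and control 3 with GSKA 1 at 0.14, and the other pairs of unlike number at -0.12 to -0.004. Deviations from a group mean sum to 0 within the group, so these values cannot settle whether libraries are paired. With a replicate block 19 genes passed, 12 higher and 7 lower, and 0 members, the adjusted p of ZNF280C being 0.0619; not every library correlated best with its own number.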

Other observations

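Of the 110 ZNF genes under the filter, 47 reached an FPKM of 1 in some library and 63 in none. 14 were listed at 0 in all 3 GSKA libraries and not in all controls, and 10 in all 3 control libraries and not in all GSKA libraries. The same counts were not made over all gene records, so 14 and 10 have no background here and are not read as a result about ZNF genes. The genes named next were chosen after their values were seen, and no fold change is given against a group listed at 0. ZNF25 had the highest value of any, 7.09 FPKM in GSKA 1, and was listed at 0 in the other 5 libraries. ZNF404 had 0, 0.770 and 3.67 in control and 0 in all GSKA libraries. ZNF804B was listed at 0 in all controls and had 1.17, 0.388 and 1.77 in the GSKA libraries. Each of these genes therefore rests on 1 to 3 libraries with a signal.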
